A study of Mus musculus with 8 samples.

Results

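Foxp3+ regulatory T cells of transplanted MB49 tumors made up 121 of the 29496 cells in the 8 single-cell RNA-seq libraries of this study. The cells were chosen by their measured UMIs: a cell was counted as Foxp3+ when it had a unique molecular identifier (UMI, one counted RNA molecule) of Foxp3, a UMI of at least 1 of the 5 T cell genes Cd3d, Cd3e, Cd3g, Trac and Trbc2, and none of Cd8a or Cd8b1. In hosts with deleted Atg7 there were 76 such cells, 14, 18, 7 and 37 in libraries 3, 4, 7 and 8, and in wild-type hosts there were 45, with 3, 13, 11 and 18 in libraries 1, 2, 5 and 6. They stood among 2731 T cells without CD8 and 4111 T cells in all.

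MB49, a mouse urothelial cancer line, had been injected under the skin of C57BL/6 mice, and the study asked how the host's Atg7 bears on tumor growth and on T cells. Deleted hosts were UbcreERT2/+;Atg7f/f (4 libraries) and wild-type hosts UbcreERT2/+;Atg7+/+ (4 libraries). Both genotypes therefore carried the tamoxifen-activated Cre and both received tamoxifen on 4 days, 1 week before the injection, with 2 tumors per mouse collected 3 weeks after it. Tumors were dissociated, cells were separated by density centrifugation, and libraries were made with the 10x Genomics 5' kit, which reads RNA near its 5' end. Cre in this strain is active in most tissues, so the deletion was not limited to T cells, while the tumor cells were not the host's. The labels do not tie tumors or libraries to mice, so the spread between libraries may hold technical as well as animal-to-animal variation.

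Regulatory T cells are CD4 T cells that restrain other immune cells, and Foxp3 is the transcription factor that specifies them. They take up interleukin 2 through a high-affinity receptor whose alpha chain is Il2ra, block costimulation through Ctla4, and in tumors often carry the activation receptors Icos, Tnfrsf4, Tnfrsf9 and Tnfrsf18. Atg7 encodes an enzyme needed to attach LC3 proteins to the membranes that form autophagosomes.

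The promoters of Foxp3, which defined the cells, and of 4 genes with high levels in them are shown because Foxp3 sets these cells apart and the other 4 are among the genes that differ between them and conventional CD4 cells. They come from RefSeq on build GRCm38.p6, as 300-base windows that span each listed start, and are written 5′ to 3′ on the gene's strand. Capitals mark the core of the NFAT site (GGAAA, or TTTCC for the other strand), a factor that partners with Foxp3.
Foxp3 promoter (chrX:7579426-7579725, plus strand): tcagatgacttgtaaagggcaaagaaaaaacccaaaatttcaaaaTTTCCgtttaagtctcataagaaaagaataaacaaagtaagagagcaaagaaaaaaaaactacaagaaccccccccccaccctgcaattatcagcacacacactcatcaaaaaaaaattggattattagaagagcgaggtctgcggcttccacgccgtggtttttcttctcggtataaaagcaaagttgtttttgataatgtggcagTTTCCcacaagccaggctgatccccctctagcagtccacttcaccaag
Foxp3 promoter (chrX:7580233-7580532, plus strand): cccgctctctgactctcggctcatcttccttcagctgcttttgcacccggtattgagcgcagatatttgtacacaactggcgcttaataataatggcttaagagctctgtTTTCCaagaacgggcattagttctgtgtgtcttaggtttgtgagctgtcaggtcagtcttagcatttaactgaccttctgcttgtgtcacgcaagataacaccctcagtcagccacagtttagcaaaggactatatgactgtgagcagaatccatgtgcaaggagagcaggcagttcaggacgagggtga
Ctla4 promoter (chr1:60908775-60909074, plus strand): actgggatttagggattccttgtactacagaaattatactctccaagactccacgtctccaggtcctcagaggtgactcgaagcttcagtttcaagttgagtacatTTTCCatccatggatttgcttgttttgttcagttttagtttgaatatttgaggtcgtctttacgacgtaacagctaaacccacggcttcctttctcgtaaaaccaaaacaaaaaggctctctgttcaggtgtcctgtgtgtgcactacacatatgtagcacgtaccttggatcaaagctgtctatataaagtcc
Tnfrsf4 promoter (chr4:156013445-156013744, plus strand): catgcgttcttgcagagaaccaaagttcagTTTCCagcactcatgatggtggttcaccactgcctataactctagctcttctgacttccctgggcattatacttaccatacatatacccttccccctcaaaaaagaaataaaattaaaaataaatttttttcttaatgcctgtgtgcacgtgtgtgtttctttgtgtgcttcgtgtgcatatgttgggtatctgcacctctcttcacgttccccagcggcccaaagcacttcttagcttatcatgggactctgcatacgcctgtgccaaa
Il2ra promoter (chr2:11642542-11642841, plus strand): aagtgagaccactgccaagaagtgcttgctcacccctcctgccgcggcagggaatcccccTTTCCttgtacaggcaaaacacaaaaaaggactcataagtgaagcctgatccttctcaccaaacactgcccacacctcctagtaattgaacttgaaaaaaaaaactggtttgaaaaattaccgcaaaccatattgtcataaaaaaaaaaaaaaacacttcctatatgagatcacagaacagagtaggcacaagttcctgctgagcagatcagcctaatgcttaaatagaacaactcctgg
Gzmb promoter (chr14:56262285-56262584, minus strand): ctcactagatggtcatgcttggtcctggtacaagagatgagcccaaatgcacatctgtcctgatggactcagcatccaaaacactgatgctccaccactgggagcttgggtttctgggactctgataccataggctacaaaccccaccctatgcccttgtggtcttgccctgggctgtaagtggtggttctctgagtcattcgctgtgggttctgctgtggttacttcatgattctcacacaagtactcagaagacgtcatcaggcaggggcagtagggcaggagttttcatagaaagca

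Foxp3 has 2 listed starts, whose windows held 2 and 1 NFAT cores, and Ctla4, Tnfrsf4 and Il2ra held 1 each. Gzmb held no GGAAA but 1 AP-1 site (TGANTCA), and none of the 6 windows held the forkhead motif TGTTTAC. The core is short and frequent: either strand of 61.3% of all 32851 promoters of the table held it, against 3.65% for the forkhead motif and 7.81% for the AP-1 motif. For 87 of the 119 genes later found higher in Foxp3+ cells a promoter was listed, and 66.4% of these 107 promoters held GGAAA, 2.80% TGTTTAC and 8.41% TGANTCA. For 80 of the 102 lower genes the shares over 102 promoters were 67.6% for GGAAA, 2.94% for TGTTTAC and 6.86% for TGANTCA, and over 5477 promoters of all tested genes 59.7%, 2.79% and 4.86% in the same order. These matches are a description of the letters in the windows.

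The Foxp3 values that chose the cells were low in most of them. With 1 Foxp3 UMI, just inside the threshold, were 50 cells (25 in deleted and 25 in wild-type hosts), and 71 had 2 or more (51 and 20), up to 16 in one cell. The 332 Foxp3 UMIs stood among 625298 UMIs in all, at a median of 3162 UMIs per cell. Outside the rule were 48 other cells with a Foxp3 UMI, 20 T cells that also had a Cd8a or Cd8b1 UMI (13 deleted, 7 wild-type) and 28 cells with none of the 5 T cell genes (17 deleted, 11 wild-type). Of the 121 cells, 13 had a UMI of only 1 of the 5 T cell genes.

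A Foxp3 UMI was far rarer in macrophage or monocyte cells and in malignant cells than in T cells without CD8. It was present in 13 of 6141 macrophage or monocyte cells (0.212%, median 3240 UMIs) and in 8 of 9665 malignant cells (0.0828%, median 13134 UMIs), against 4.43% of T cells without CD8 (median 3087 UMIs). By genotype, macrophage or monocyte cells had it in 12 of 4451 in deleted (0.270%) and 1 of 1690 in wild-type hosts (0.0592%). CD8 T cells lay between, at 20 of 1380 (1.45%, median 3757 UMIs). Their share was 3.12% in deleted and 0.726% in wild-type hosts, against 4.33% and 4.61% of T cells without CD8.

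The cells carried the markers of the label. Ikzf2, which encodes Helios, a transcription factor of regulatory T cells that arise in the thymus, had a UMI in 84.3% of the 121 cells (95% exact binomial interval 76.6 to 90.3%). Tnfrsf4, the costimulatory receptor OX40, had one in 86.8% and Ctla4 in 69.4%. All 3 were present in 68 cells (46 deleted, 22 wild-type), exactly 2 in 41 cells, 1 in 5 cells and none in 7 cells. In malignant cells, at a median of 13134 UMIs per cell against 3162, a UMI of Ikzf2, Tnfrsf4 or Ctla4 was present in 11.4%, 0.848% and 0.166%. Other T cells carried them too: Ikzf2 in 11.6%, Tnfrsf4 in 59.3% and Ctla4 in 46.0% of conventional CD4 cells, and 18.0%, 19.9% and 44.0% in the same order in CD8 T cells. Such shares and intervals cover counting error only, since RNA that leaks between droplets and capture failure are not in them.

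Cd4 itself, the coreceptor of these cells, had a UMI in 57 of the 121 (47.1%, 95% exact binomial interval 38.0 to 56.4%). Per library the share was 57.9% ± 14.5 in deleted and 32.7% ± 17.2 in wild-type hosts (SD, n = 4 each, two-sided exact permutation p = 0.0857). The median UMI count of Foxp3+ cells ran the same way, at 3908 ± 883 in deleted and 2666 ± 923 in wild-type libraries (SD over 4 libraries each, p = 0.114 by exact permutation). In both measures the libraries of the genotypes overlapped.

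Libraries differed in 2 ways that touch the results. Library totals ran between 4371773 and 59235799 UMIs, and libraries 1 to 4 differed in barcode set from libraries 5 to 8, each set with both genotypes. Foxp3+ cells with UMIs of at least 3 of 28 marker genes of macrophages, neutrophils, fibroblasts or malignant cells made up 92.9, 72.2, 14.3 and 16.2% in deleted libraries 3, 4, 7 and 8, and 66.7, 15.4, 27.3 and 5.56% in wild-type libraries 1, 2, 5 and 6. Among conventional CD4 cells of library 3 the share was 93.0%. Results on levels are therefore also given without these 41 cells (33 deleted, 8 wild-type), and the part of free RNA or doublets in any result was not tested. Over the 28 pairs of libraries 180 barcodes were shared, none of them by 2 Foxp3+ cells.

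Foxp3+ cells were compared between genotypes first by number, with the library as replicate. Each cell was thinned to 1000 UMIs, shallower cells were left out, and 20 draws were averaged, since a deeper cell is more likely to show a Foxp3 UMI. After thinning 8.00, 8.20, 3.70 and 21.2 Foxp3+ cells remained in deleted libraries 3, 4, 7 and 8, and 1.40, 8.70, 4.10 and 7.80 in wild-type libraries 1, 2, 5 and 6, so every share below rests on few cells.

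Against CD8 T cells, the ratio of Foxp3+ cells was higher in every deleted than in every wild-type library. Per 100 T cells with a Cd8a or Cd8b1 UMI, libraries 3, 4, 7 and 8 of deleted hosts held 21.6, 13.7, 24.1 and 25.3 Foxp3+ cells, and libraries 1, 2, 5 and 6 of wild-type hosts held 4.16, 4.80, 2.47 and 3.01. The lowest deleted library, 13.7, stood above the highest wild-type library, 4.80. The means were 21.2 ± 5.23 in deleted and 3.61 ± 1.06 in wild-type hosts (SD, n = 4 each, difference 17.6, two-sided exact permutation p = 0.0286, adjusted p = 0.0714 by Benjamini-Hochberg over 5 ratios). With 4 against 4 libraries 0.0286 is the smallest p possible. The separation was present in both barcode sets, at 17.6 in deleted and 4.48 in wild-type hosts in libraries 1 to 4, and at 24.7 in deleted and 2.74 in wild-type hosts in libraries 5 to 8. Unthinned, the means were 18.8 in deleted and 4.97 in wild-type hosts. The denominator moved too, since the files held 416 CD8 T cells of deleted hosts and 964 of wild-type hosts, so more Foxp3+ cells and fewer CD8 T cells cannot be told apart in this ratio.

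Of all T cells, Foxp3+ cells were 3.02, 2.25, 2.53 and 3.62% in deleted libraries 3, 4, 7 and 8, and 1.95, 2.13, 1.11 and 1.6% in wild-type libraries 1, 2, 5 and 6. The genotypes did not overlap at 1000 UMIs, with means of 2.85% ± 0.598 in deleted and 1.70% ± 0.450 in wild-type hosts (SD, n = 4 each; 0.0286 by exact permutation and 0.0714 after adjustment). They did overlap without thinning, at 3.48% in deleted and 2.30% in wild-type hosts (exact permutation p = 0.114), at 500 UMIs and at 2000 UMIs (p = 0.0857 each) and without cells of other-lineage markers (p = 0.0571). The difference was 0.590 percentage points in libraries 1 to 4 and 1.72 in libraries 5 to 8.

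Among T cells without CD8 the share of Foxp3+ cells did not separate the genotypes. It was 3.50, 2.69, 2.83 and 4.22% in deleted libraries 3, 4, 7 and 8, and 3.67, 3.84, 2.02 and 3.41% in wild-type libraries 1, 2, 5 and 6. The means were 3.31% ± 0.701 in deleted and 3.24% ± 0.830 in wild-type hosts (SD, n = 4 each, difference 0.0762, exact permutation p = 0.943), and the sign of this small difference turned under 5 of the alternatives. Within barcode sets it was -0.657 percentage points in libraries 1 to 4 and 0.809 in libraries 5 to 8.

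Against conventional CD4 cells, the T cells with a Cd4 UMI and none of Foxp3, Cd8a or Cd8b1, the ratio ran the other way. Per 100 conventional CD4 cells there were 17.0, 26.1, 16.3 and 20.5 Foxp3+ cells in deleted libraries 3, 4, 7 and 8, and 30.8, 43.5, 22.0 and 42.1 in wild-type libraries 1, 2, 5 and 6. Only wild-type library 5 lay within the range of the deleted libraries. The means were 20 ± 4.47 in deleted and 34.6 ± 10.1 in wild-type hosts (SD, n = 4 each, difference -14.6, exact permutation p = 0.0571 and 0.0714 after adjustment). Within the sets the values were 21.6 in deleted and 37.1 in wild-type hosts in libraries 1 to 4, and 18.4 in deleted and 32.0 in wild-type hosts in libraries 5 to 8. The denominator differed here too, since the files held 450 conventional CD4 cells of deleted hosts and 117 of wild-type hosts. Fewer Foxp3+ cells and more conventional CD4 cells cannot be told apart in this ratio. Foxp3+ cells whose Foxp3 RNA was not captured may also be counted among the conventional cells.

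Of all cells of a library, Foxp3+ cells were 0.235, 0.385, 0.477 and 0.549% in deleted hosts (libraries 3, 4, 7 and 8), and 0.0673, 0.292, 0.0785 and 0.161% in wild-type hosts (libraries 1, 2, 5 and 6). Deleted library 3 lay below wild-type library 2, and the other deleted libraries lay above all wild-type ones (means 0.411% ± 0.136 in deleted and 0.150% ± 0.104 in wild-type hosts, SD, n = 4 each; 0.0571 by exact permutation and 0.0714 after adjustment). None of the 5 ratios passed an adjusted p of 0.05 at 1000 UMIs. At 2000 UMIs per cell the ratios to all cells, to CD8 T cells and to conventional CD4 cells did (adjusted p = 0.0476 each). For CD8 T cells the exact permutation p before adjustment was 0.0286 at both depths.

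**Figure D1:**
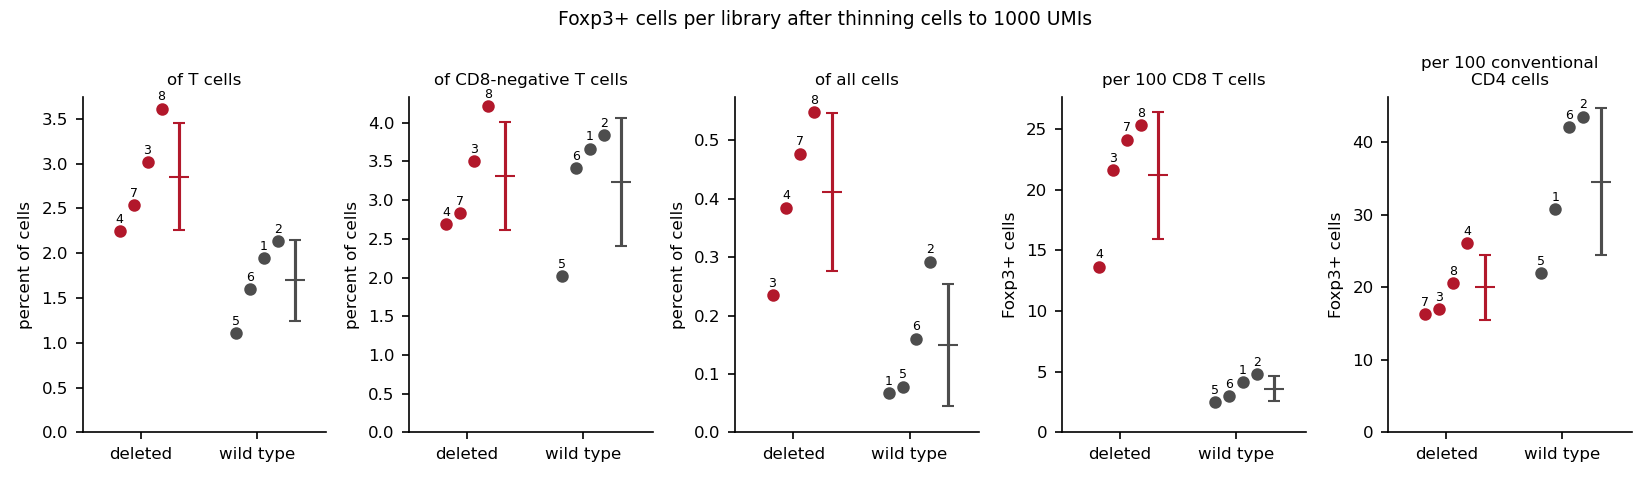
Foxp3+ cells in each library after thinning every cell to 1000 UMIs, as a percent of T cells, of T cells without CD8 and of all cells, and per 100 CD8 T cells and per 100 conventional CD4 cells. Each point is a library with its number, deleted hosts left and wild-type hosts right, and the bars give the mean and SD of 4 libraries. Only the panels of T cells and of CD8 T cells show no overlap, with 13.7 to 25.3 Foxp3+ cells per 100 CD8 T cells in deleted and 2.47 to 4.80 in wild-type hosts.

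To describe what Foxp3+ cells expressed, they were set against the conventional CD4 cells of the same library. The level of a gene is its mean number of UMIs per 10000 UMIs of a cell, and levels were compared as log2(level + 0.5) with limma, the library as a block and Benjamini-Hochberg adjustment over all genes tested. Libraries with under 10 Foxp3+ cells (deleted library 7 and wild-type library 1) could not be used, which left 3 of each genotype. Of 5326 genes tested, 119 were higher (2.23%) and 102 lower (1.92%) in Foxp3+ cells at an adjusted p under 0.05, the threshold used throughout, at a median difference of -0.00831 over all genes. With levels scaled to the median ratio, 93 were higher and 139 lower. Foxp3+ cells were not required to have a Cd4 UMI and conventional cells were, so Cd4 and the genes of the rule were not tested. A gene entered when, averaged over both cell groups, 10% of cells had it in 3 libraries. Of the 119 higher genes 23, and of the 102 lower genes 21, were too rare in the group where they were low to enter through that group alone, so the filter largely set their direction, which is no result.

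Ikzf2 had the lowest p of all. Its level in Foxp3+ cells was 10.2, 8.34 and 10.1 UMIs per 10000 in deleted libraries 3, 4 and 8 and 15.8, 21.0 and 8.83 in wild-type libraries 2, 5 and 6, against 0.213, 0.933 and 0.856 in the conventional CD4 cells of the deleted and 0.798, 1.94 and 1.97 in those of the wild-type libraries. Every library showed the difference and the ranges did not overlap (12.4 ± 4.98 against 1.12 ± 0.695, SD, n = 6 libraries; log2 difference 3.03, SE 0.22, limma adjusted p = 1.77e-10). Ikzf2 lies on chromosome 1 (69531214 to 69687245, GRCm38).

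Gzmb, which encodes the cytotoxic protease granzyme B, came second. In Foxp3+ cells its level was 23.5, 11.2 and 21.6 UMIs per 10000 in deleted libraries 3, 4 and 8 and 24.1, 11.4 and 31.2 in wild-type libraries 2, 5 and 6. In conventional CD4 cells its level was 1.23, 0.948 and 2.69 in the deleted libraries and 2.02, 4.94 and 8.18 in the wild-type ones. The lowest Foxp3+ library was above the highest conventional one (log2 difference 2.65, SE 0.23, limma adjusted p = 6.34e-09). Gzmb (chromosome 14, 56258838 to 56262260) had a UMI in 70.2% of the 121 cells, in 70.8% of CD8 T cells, in 15.2% of conventional CD4 cells and in 0.962% of malignant cells.

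The other costimulatory and interleukin receptors followed. Tnfrsf9, the costimulatory receptor 4-1BB, averaged 18.1 ± 4.52 UMIs per 10000 in Foxp3+ and 4.79 ± 1.91 in conventional CD4 cells (SD, n = 6 libraries, log2 difference 1.86, limma adjusted p = 1.29e-07). Il2ra, the alpha chain of the interleukin 2 receptor, averaged 8.14 ± 3.12 in Foxp3+ and 1.89 ± 1.27 in conventional cells (log2 difference 1.96, adjusted p = 4.02e-07). Tnfrsf4 averaged 18.0 ± 7.47 in Foxp3+ and 5.75 ± 2.19 in conventional cells (log2 difference 1.53, adjusted p = 5.43e-06), and Ctla4 10.5 ± 4.25 in Foxp3+ and 3.28 ± 1.00 in conventional cells (log2 difference 1.5, adjusted p = 1.17e-05). Tnfrsf4 ranged between 8.09 and 25.6 in Foxp3+ and between 2.93 and 9.18 in conventional cells, and Ctla4 between 5.08 and 18.1 in Foxp3+ and between 2.27 and 5.0 in conventional cells. All 4 were higher in Foxp3+ cells in each of the 6 libraries, as were 4.22% of all tested genes.

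**Figure D2:**
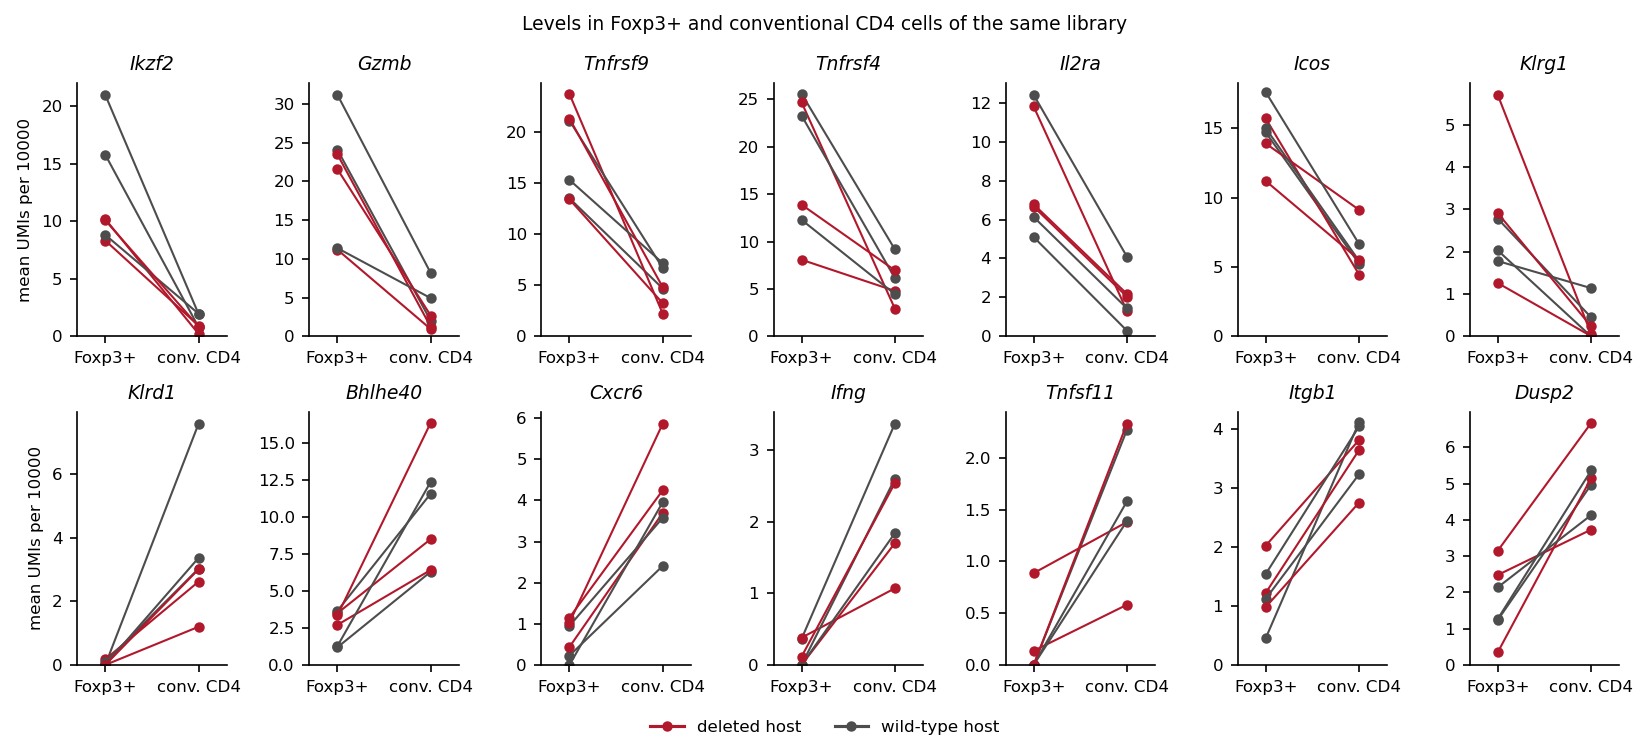
Mean UMIs per 10000 of 14 genes in Foxp3+ cells (left of each panel) and conventional CD4 cells (right), with a line joining the values of a library, red for deleted and grey for wild-type hosts. The 7 genes of the upper row were higher and the 7 of the lower row lower in Foxp3+ cells of all 6 libraries, in hosts of both genotypes. Of all tested genes, 4.22% were higher and 4.58% lower in each of these libraries. The genes shown were picked from those past the threshold. Klrg1, Klrd1, Ifng and Tnfsf11 entered the test through the group where they are high, so the filter largely set their direction.

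Of 15 tested genes of a list of regulatory T cell identity, 10 were higher and 1 lower, at a median log2 difference of 1.32 against -0.00831 over all genes. Lrrc32, Ikzf4 and Itgae among the higher ones, and Nrp1, the lower one, entered the test through the group where they are high. Besides the 4 named above and Ikzf2, they were Tnfrsf18 (the costimulatory receptor GITR, 10.7 ± 2.45 in Foxp3+ and 4.23 ± 1.70 in conventional cells), Lrrc32 (GARP, which holds latent TGF-beta on the cell surface, 1.56 ± 0.556 in Foxp3+ and 0.137 ± 0.126 in conventional cells), Ikzf4 (the transcription factor Eos, 1.5 ± 0.921 in Foxp3+ and 0.311 ± 0.457 in conventional cells), Capg and Itgae (CD103, an integrin chain that binds epithelial cadherin). Itgae had 1.21 ± 0.809 in Foxp3+ and 0.0291 ± 0.0354 UMIs per 10000 in conventional cells (SD, n = 6 libraries) and could be tested in only 3 of the 6 fits that left out a library. Nrp1, a semaphorin receptor, was the lower one (0.178 ± 0.161 in Foxp3+ and 0.828 ± 0.395 in conventional cells, log2 difference -0.96, limma adjusted p = 0.0225), with UMIs in 10 of the 121 cells. It did not pass without wild-type library 2, wild-type library 5 or deleted library 8 (adjusted p = 0.0971, 0.0527 and 0.0718). It had a UMI in 30.5% of malignant cells, and the part of RNA from them in the conventional cells was not tested.

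Genes of effector and tumor regulatory T cells were higher in part. Of 18 tested, 7 were higher and 1 lower, at a median log2 difference of 0.41. Klrg1 and Il1rl1 entered the test through the Foxp3+ cells, where they are high, so the filter largely set their direction. Klrg1, an inhibitory receptor of highly differentiated lymphocytes, had 5.70, 1.26 and 2.91 UMIs per 10000 in Foxp3+ cells of deleted libraries 3, 4 and 8 and 2.03, 2.78 and 1.78 in those of wild-type libraries 2, 5 and 6, against at most 1.14 in conventional CD4 cells of any of these libraries (log2 difference 2.01, SE 0.28, limma adjusted p = 2.06e-05). Icos, a costimulatory receptor, had 14.7 ± 2.13 in Foxp3+ and 6.07 ± 1.65 in conventional cells (SD, n = 6, log2 difference 1.23, adjusted p = 5.51e-06). The others were the transcription factors Maf (7.81 ± 3.25 in Foxp3+ and 3.34 ± 1.17 in conventional cells) and Prdm1 (Blimp-1, 1.53 ± 0.833 in Foxp3+ and 0.329 ± 0.231 in conventional cells), the adaptor Samsn1, the tumor necrosis factor receptor Tnfrsf1b and the interleukin 33 receptor Il1rl1.

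Il1rl1 varied between libraries. It had 0.525, 0.290 and 5.01 UMIs per 10000 in Foxp3+ cells of deleted libraries 3, 4 and 8 and 2.72, 1.81 and 1.82 in those of wild-type libraries 2, 5 and 6, and in libraries 3 and 4 the conventional cells were higher (0.745 and 0.417). It did not pass without wild-type library 2, wild-type library 6 or deleted library 8 (limma adjusted p = 0.115, 0.0698 and 0.153). Pdcd1, the inhibitory receptor PD-1, was the lower one (0.374 ± 0.327 in Foxp3+ and 1.31 ± 0.618 in conventional cells, log2 difference -1.08, adjusted p = 0.0196) and did not pass without wild-type library 2, deleted library 3 or deleted library 8 (adjusted p = 0.143, 0.0885 and 0.0519). Ccr8, a chemokine receptor of tumor regulatory T cells, had a UMI in 14.0% of the 121 cells, in 7.58% of conventional CD4 cells, in 3.33% of CD8 T cells and in 0.0103% of malignant cells.

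Of 12 tested genes of suppressive mediators, 6 were higher and none lower (median log2 difference 0.80). They were Gzmb, Ctla4, Lrrc32, the epidermal growth factor receptor ligand Areg, the cytokine Il10 and Ebi3, a subunit of interleukins 27 and 35. Lrrc32 and Il10 entered the test through the Foxp3+ cells, where they are high, so the filter largely set their direction. Since 4 of the 16 members of the list were not tested, the count and the median also rest partly on the filter. Areg had 4.25 ± 0.956 in Foxp3+ and 1.92 ± 0.924 UMIs per 10000 in conventional cells (SD, n = 6, log2 difference 1.03, limma adjusted p = 0.00164), but -0.11 on the log2 scale when libraries 1 and 7 entered, where the level in conventional cells was 5.30 and 12.3. Il10 had 1.41, 1.20 and 0.379 in Foxp3+ cells of deleted libraries 3, 4 and 8 and 0.896, 4.64 and 1.11 in those of wild-type libraries 2, 5 and 6, and did not pass without wild-type library 6 (adjusted p = 0.0551). Ebi3 did not pass without deleted library 3, wild-type library 6 or deleted library 8 (adjusted p = 0.0788, 0.171 and 0.102).

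Costimulatory receptors showed 7 of 9 tested genes higher and none lower, at a median log2 difference of 1.23. Cd27 (2.74 ± 1.31 in Foxp3+ and 0.670 ± 0.412 UMIs per 10000 in conventional cells, SD, n = 6) and Cd2 (9.57 ± 4.27 in Foxp3+ and 4.86 ± 1.99 in conventional cells) joined Tnfrsf9, Tnfrsf4, Icos, Tnfrsf18 and Tnfrsf1b. Cd28 and Cd44 were the members that did not pass.

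Products of helper T cells were mostly lower in Foxp3+ cells. Of 6 tested, 5 were lower and none higher (median log2 difference -1.75). Ifng, Tnfsf11 and Cd40lg were detected too rarely in Foxp3+ cells to have entered through them, and 8 of the 14 members of the list were not tested, so the count and the median rest partly on the filter. Ifng, the cytokine interferon gamma, had 5 UMIs in 3 of the 121 cells, at 0.143 ± 0.183 UMIs per 10000 against 2.19 ± 0.811 in conventional CD4 cells (SD, n = 6, log2 difference -2.05, limma adjusted p = 5.28e-06). Tnfsf11, the ligand RANKL, had 0.136, 0.886 and 0 in Foxp3+ cells of deleted libraries 3, 4 and 8 and was listed at 0 in those of wild-type libraries 2, 5 and 6, against 0.581 to 2.33 in conventional cells. Bhlhe40, a transcription factor of cytokine-producing T cells, had 2.61 ± 1.12 in Foxp3+ and 10.3 ± 3.94 in conventional cells (log2 difference -1.81, adjusted p = 8.08e-07), and Cxcr6, a receptor of tissue T cells, 0.632 ± 0.475 in Foxp3+ and 3.96 ± 1.13 in conventional cells (log2 difference -2.07, adjusted p = 9.21e-07). Cd40lg, the CD40 ligand, had 2 UMIs in 1 of the 121 cells and could be tested in only 3 of the 6 fits without a library. Tnf did not pass (1.07 ± 0.778 in Foxp3+ and 0.985 ± 0.664 in conventional cells, adjusted p = 0.986).

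The lowest p among lower genes belonged to Klrd1, the CD94 receptor of natural killer and activated T cells, with 4 UMIs in 3 Foxp3+ cells (0.0436 ± 0.0729 against 3.47 ± 2.16 UMIs per 10000, SD, n = 6, log2 difference -2.72, limma adjusted p = 7.42e-08). Further genes of lowest p were Serpinb1a, an inhibitor of granule proteases, Plac8, Arap2, Ms4a4b, B4galnt1, Ostf1, Ramp3, a receptor-modifying protein, and Nmrk1, at log2 differences between -1.42 and -1.94. All 9 had a lower level in Foxp3+ than in conventional CD4 cells in each of the 6 libraries, as had 4.58% of tested genes. Klrd1, Serpinb1a and Nmrk1 entered the test through the conventional cells, where they are high, so the filter largely set their direction. Serpinb1a could be tested in only 3 of the 6 fits without a library.

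Among the higher genes of lowest p outside the lists, Arl5a, a small GTPase, had 6.21 ± 2.28 in Foxp3+ and 1.02 ± 0.505 UMIs per 10000 in conventional cells, Glrx, the redox enzyme glutaredoxin, 6.55 ± 4.69 in Foxp3+ and 1.45 ± 0.451 in conventional cells, and Vim, the intermediate filament vimentin, 23.8 ± 5.56 in Foxp3+ and 11.8 ± 3.85 in conventional cells (SD, n = 6 libraries, limma adjusted p = 1.29e-07, 5.39e-06 and 9.30e-06). Ighm, the heavy chain of immunoglobulin M, had 2.44 ± 1.15 in Foxp3+ and 0.308 ± 0.106 in conventional cells (log2 difference 1.80, adjusted p = 1.57e-05). Ighm entered the test through the Foxp3+ cells, where it is high, so the filter largely set its direction. Of the 5 B cell markers Ms4a1 was at 0 in all 121 cells, and the summed level of the 5 was 1.88 to 5.41 in deleted and 0.863 to 2.50 in wild-type libraries.

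Homing receptors moved in both directions, with 4 of 11 tested higher and 2 lower. Ccr2, a receptor for monocyte chemoattractants, had 11.7, 6.04 and 8.11 UMIs per 10000 in Foxp3+ cells of deleted libraries 3, 4 and 8 and 7.04, 4.78 and 5.66 in those of wild-type libraries 2, 5 and 6, against at most 3.02 in conventional CD4 cells (log2 difference 1.63, limma adjusted p = 5.86e-06). Itgae and Itgb7, the partner chain of Itgae, were higher too. Itgb7 did not pass without wild-type library 2, deleted library 3 or deleted library 8 (adjusted p = 0.0574, 0.0624 and 0.131). Itgb1, a widely used integrin beta chain, was lower (1.22 ± 0.528 in Foxp3+ and 3.60 ± 0.522 in conventional cells, SD, n = 6, log2 difference -1.30, adjusted p = 0.000298), as was Cxcr6.

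Of genes of central and resting T cells, 2 of 8 tested were higher, Il7r among them, none was lower, and the median log2 difference was 0.24. The higher gene besides Il7r entered the test through the Foxp3+ cells, where it is high, so the filter largely set its direction. Il7r, the interleukin 7 receptor, had 4.73 ± 1.70 in Foxp3+ and 1.94 ± 0.667 UMIs per 10000 in conventional cells (SD, n = 6, log2 difference 1.09, limma adjusted p = 0.0022). Ccr7, a receptor that guides cells to lymph nodes, had 1.92 ± 1.41 in Foxp3+ and 1.19 ± 0.482 in conventional cells (adjusted p = 0.687), and Tcf7, a transcription factor of resting T cells, had a UMI in 1 of the 121 cells.

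Foxp3+ cells were mixed in these receptors. Klrg1 had a UMI in 54 cells and Ccr7 in 31, and both occurred together in 14. Gzmb had a UMI in 46 of the 54 cells with Klrg1 (85.2%) and in 39 of the 67 without (58.2%). The median depth was 3866.5 UMIs in the cells with Klrg1 and 2526 UMIs in those without, and its part in that difference was not tested. At least 3 of 20 cell cycle genes had a UMI in 49 cells (40.5%; 32 deleted, 17 wild-type). This count was made in Foxp3+ cells only and does not give the share of dividing cells. Mki67, one of the 20, had a UMI in 16 of the 121 cells (13.2%), in 7.1% of conventional CD4 cells and in 21.9% of CD8 T cells.

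Other lists held few genes past the threshold. In the interferon gamma response 4 of 19 tested were higher, among them Igtp, Ifi47 and Gbp4, at a median log2 difference of 0.52. Igtp, a GTPase of defense against intracellular microbes, had 3.88 ± 1.80 in Foxp3+ and 1.41 ± 0.573 UMIs per 10000 in conventional cells (SD, n = 6, limma adjusted p = 0.000853). Ifi47 did not pass without wild-type library 6 or deleted library 8 (adjusted p = 0.0672 and 0.0553), and Gbp4 not without deleted library 3, wild-type library 5, wild-type library 6 or deleted library 8 (0.168, 0.116, 0.153 and 0.0757). In the type I interferon response 2 of 14 tested were higher (median log2 difference 0.02), Ifi27l2a at 29.5 ± 20.1 in Foxp3+ and 15.4 ± 8.73 in conventional cells.

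Genes induced by T cell receptor signals leaned the other way, with 3 of 17 tested lower, none higher and a median log2 difference of -0.20. Dusp2, a phosphatase that limits MAP kinase signals, had 1.77 ± 1.01 in Foxp3+ and 5.0 ± 1.03 UMIs per 10000 in conventional cells (SD, n = 6, log2 difference -1.40, limma adjusted p = 0.000298). The nuclear receptors Nr4a2 (0.865 ± 0.393 in Foxp3+ and 2.14 ± 1.08 in conventional cells) and Nr4a3 (1.25 ± 0.736 in Foxp3+ and 2.84 ± 1.01 in conventional cells) did not pass without deleted library 8 (adjusted p = 0.181 and 0.0631), Nr4a2 also not without wild-type library 2 or deleted library 3 (0.179 and 0.0699) and Nr4a3 not without wild-type library 5 (0.0711). Of 18 tested immediate early genes, which also respond to tissue dissociation, Dnajb1, Btg2 and Junb were lower, and the median log2 difference was -0.35. Dnajb1, a heat shock cochaperone, did not pass without deleted library 3 or 8 or wild-type library 6 (adjusted p = 0.0687, 0.0524 and 0.131). Junb, an AP-1 subunit, did not pass without deleted library 3 or 8 or wild-type library 2 or 5 (0.223, 0.113, 0.165 and 0.11). Btg2, an antiproliferative factor, did not pass without deleted library 3, 4 or 8 or wild-type library 2 or 6 (0.0999, 0.0955, 0.0867, 0.0861 and 0.0987).

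In the TGF-beta list of 10 tested genes, Lrrc32 and Itgav were higher and Furin and Tgfbr2 lower (median log2 difference -0.33). Itgav, the integrin alpha chain that helps release active TGF-beta, had 4.23 ± 0.988 in Foxp3+ and 1.70 ± 0.911 UMIs per 10000 in conventional cells (SD, n = 6, limma adjusted p = 0.00149). Furin, the protease that cleaves the TGF-beta precursor, had 1.62 ± 1.18 in Foxp3+ and 4.26 ± 2.20 in conventional cells (log2 difference -1.23, adjusted p = 0.00658) and did not pass without wild-type library 6 (adjusted p = 0.0549). Tgfbr2, a chain of the TGF-beta receptor, had 0.790 ± 0.421 in Foxp3+ and 1.83 ± 0.481 in conventional cells and did not pass without deleted library 3 or 8 (adjusted p = 0.0663 and 0.206).

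None of 17 tested autophagy genes passed, at a median log2 difference of -0.09. The most abundant were the cargo receptor Sqstm1 (5.09 ± 2.36 in Foxp3+ and 6.14 ± 2.45 UMIs per 10000 in conventional cells, SD, n = 6, limma adjusted p = 0.536), the LC3-like Gabarap (4.23 ± 1.78 in Foxp3+ and 4.74 ± 1.71 in conventional cells, adjusted p = 0.73) and the receptor Tax1bp1 (3.85 ± 1.62 in Foxp3+ and 3.06 ± 0.566 in conventional cells, adjusted p = 0.771). Atg7 itself had 11 UMIs in the 121 cells, 8 in deleted and 3 in wild-type hosts. Which part of Atg7 the reads covered and which part was deleted is not given in the sources used here, so this number does not check the genotype.

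In the remaining lists few genes passed. Of T cell transcription factors, Maf and Prdm1 were higher and Id2, a partner of helix-loop-helix factors, lower among 16 tested (Id2 5.66 ± 1.44 in Foxp3+ and 10.7 ± 5.23 UMIs per 10000 in conventional cells, SD, n = 6, limma adjusted p = 0.0135). Id2 did not pass without wild-type library 5 or deleted library 8 (adjusted p = 0.0568 and 0.0895). Of 13 interleukin 2 and STAT5 genes Il2ra alone was higher, and the kinase Pim1 (12.4 ± 3.90 in Foxp3+ and 8.35 ± 2.67 in conventional cells) had an adjusted p of 0.055. Of 13 cell cycle genes Hmgb2, Mcm5 and Birc5 were higher (median log2 difference 0.58), Hmgb2, a chromatin protein, at 7.59 ± 2.52 in Foxp3+ and 3.61 ± 0.815 in conventional cells (adjusted p = 0.00333). Mcm5 and Birc5 did not pass without deleted library 8 (adjusted p = 0.0785 and 0.146), and Mcm5 also not without wild-type library 2, deleted library 3 or wild-type library 6 (0.115, 0.0711 and 0.0572). Both entered the test through the Foxp3+ cells, where they are high, so the filter largely set their direction. Since 7 of the 20 cell cycle genes were not tested, the count and the median also rest partly on the filter.

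Metabolic and survival lists held 1 or 2 genes past the threshold each, to be read against 4.15% of all tested genes in either direction. Of 16 glycolysis genes the lactate exporter Slc16a3 and the pyruvate kinase Pkm were higher (median log2 difference 0.06). Slc16a3 (2.04 ± 0.598 in Foxp3+ and 0.738 ± 0.369 UMIs per 10000 in conventional cells, SD, n = 6) did not pass without deleted library 8 (limma adjusted p = 0.0631), and Pkm not without deleted library 3 or 8 or wild-type library 5 or 6 (0.106, 0.0919, 0.0754 and 0.147). Of 11 Myc and mTORC1 targets the polyamine enzyme Odc1 was higher (25.8 ± 10.3 in Foxp3+ and 18.1 ± 6.67 in conventional cells, adjusted p = 0.034), but not without any of deleted libraries 3 and 8 and wild-type libraries 2, 5 and 6 (0.0788, 0.142, 0.174, 0.0779 and 0.104). Of 11 apoptosis genes Bcl2a1b and Bcl2a1d were lower, a pair of near-identical copies whose reads the counting could split.

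**Figure D3:**
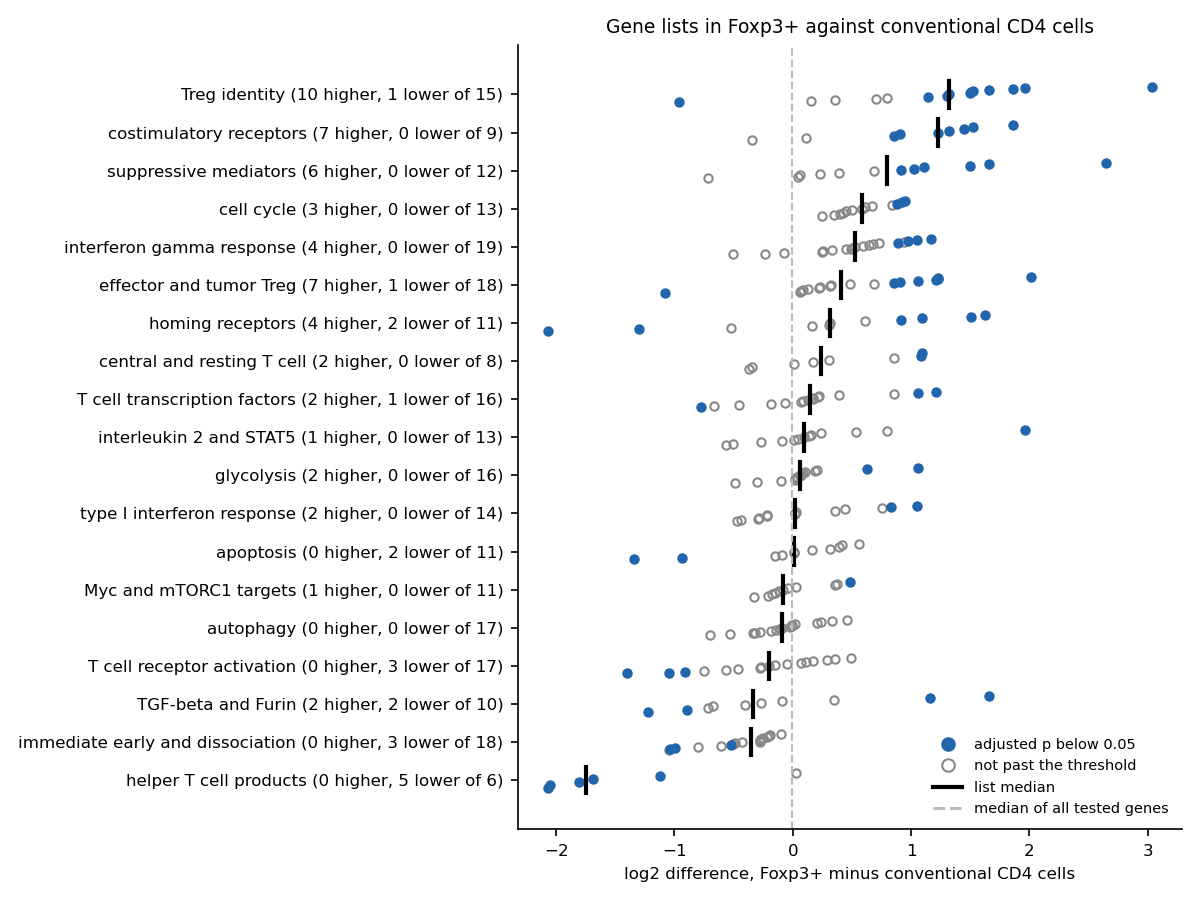
Log2 difference in level, Foxp3+ minus conventional CD4 cells, for each tested member of 19 gene lists. Filled points passed an adjusted p of 0.05, black bars are list medians, and the dashed line is the median of all 5326 tested genes (-0.00831). Regulatory T cell identity lies furthest right with a median of 1.32, and helper T cell products furthest left with -1.75.

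Without the cells that held other-lineage markers, which left libraries 2, 6 and 8, 172 of the 221 genes could be tested, 172 kept their direction and 90 passed. Ikzf2, Gzmb, Tnfrsf9, Il2ra, Tnfrsf4, Ctla4, Icos, Klrd1, Ifng, Cxcr6 and Bhlhe40 passed there, while Maf, Samsn1, Tnfrsf1b, Pdcd1, Ebi3, Areg, Il7r, Itgb7, Id2, Hmgb2, Tgfbr2, Nr4a2, Nr4a3, Junb, Dnajb1, Gbp4 and Pkm did not (limma adjusted p between 0.0546 and 0.438). With 3 libraries fewer, several of these kept log2 differences near those with all 6: 0.97 there and 1.06 with all 6 for Maf, -1.34 and -1.08 for Pdcd1, 0.99 and 0.91 for Ebi3, and 1.04 and 0.92 for Itgb7. Nr4a3 had -0.50 there and -1.04 with all 6. Klrg1, Ighm, Itgae, Il10, Prdm1, Nrp1, Cd40lg, Serpinb1a, Birc5 and Mcm5 were too rare to be tested there. Ccr7 passed there (adjusted p = 0.00613). Deleted libraries alone gave 148 genes and wild-type libraries alone 84.

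Between genotypes, 5 genes passed in Foxp3+ cells, all higher in deleted hosts and all known for high levels in macrophages. Of 5399 genes tested in libraries 3, 4 and 8 of deleted and 2, 5 and 6 of wild-type hosts, these 5 were 0.0926%, none was lower (0.0%), and 362 had an unadjusted p under 0.05. The median log2 difference over all genes was 0.0873. Psap alone was detected widely enough in wild-type libraries to have entered the test through them, while Apoe, Lyz2, Ctsl and Ctsc needed the deleted libraries, so the count and its one direction rest partly on the filter. Apoe, a lipid carrier, had 13.5, 10.4 and 4.77 UMIs per 10000 in deleted libraries 3, 4 and 8, and 0.627, 0 and 0 in wild-type libraries 2, 5 and 6 (log2 difference 3.83, SE 0.47, limma adjusted p = 2.06e-08). In the libraries not tested it was listed at 0 in deleted library 7 and at 2.33 in wild-type library 1, so over all 8 libraries the genotypes overlapped. In the 6 libraries tested, 8.15% of all genes did not overlap in this direction.

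Psap, a precursor of lysosomal activators, had 19.3, 38.2 and 8.86 UMIs per 10000 in deleted libraries 3, 4 and 8, and 0.703, 2.91 and 1.77 in wild-type libraries 2, 5 and 6 (log2 difference 3.19, limma adjusted p = 3.09e-06). Lyz2, the lysozyme of myeloid cells, had 4.20, 8.91 and 5.19 in these deleted and 1.55, 0 and 0 in these wild-type libraries (log2 difference 2.98, adjusted p = 4.99e-05). The cathepsins Ctsl and Ctsc had log2 differences of 2.48 and 2.25 (adjusted p = 0.0084 and 0.0166). Lyz2 did not pass without deleted library 8 (adjusted p = 0.105), Ctsl not without deleted library 4 or wild-type library 6 (1.00 and 0.194), and Ctsc not without any of deleted libraries 3, 4 and 8 or wild-type library 6 (0.432, 0.945, 0.0746 and 0.326). The libraries used hold deleted 3 and 4 and wild-type 2 of the first barcode set against deleted 8 and wild-type 5 and 6 of the second. With a barcode set term 4 genes passed and Ctsc did not (log2 difference 1.86, adjusted p = 0.129). Over all 8 libraries Lyz2 did not overlap, with 3.60 in deleted library 7 and 1.28 in wild-type library 1, and it alone of the 5 passed there (adjusted p = 0.0131). Psap and Apoe had adjusted p = 0.196 and 0.4997 with all 8 libraries.

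Summed macrophage and monocyte markers were highest in deleted libraries 3 and 4, as were Apoe, Psap and Ctsc. Lyz2 was highest in deleted libraries 4 and 8 (8.91 and 5.19). Ctsl was highest in deleted library 4 (14.2), followed by wild-type library 1 (4.62), which was not among the libraries tested. The part of macrophage and monocyte RNA in the result was not tested. Apoe and Lyz2 are themselves in this marker list, so the summed level partly repeats their own levels. All 10 macrophage and monocyte markers were detected in Foxp3+ cells, and their summed level was 28.3, 32.2, 4.50 and 14.1 UMIs per 10000 in deleted libraries 3, 4, 7 and 8, and 13.0, 6.72, 2.03 and 0.214 in wild-type libraries 1, 2, 5 and 6. In the same order, Apoe gave 13.5, 10.4, 0 and 4.77 of the deleted sums and 2.33, 0.627, 0 and 0 of the wild-type sums. Lyz2 gave 4.20, 8.91, 3.60 and 5.19 of the deleted sums and 1.28, 1.55, 0 and 0 of the wild-type sums. The 6 fibroblast markers summed to 21.1, 32.0, 0 and 0 in the deleted and 1.27, 0.869, 0.5 and 0.122 in the wild-type libraries, so they were at 0 in deleted library 8, where Apoe, Psap and Lyz2 were raised over the wild-type libraries used. Neutrophil markers summed to 30.8 in deleted library 8, to 0 to 2.22 in the other deleted libraries and to 0 to 3.55 in wild-type libraries. The 6 markers of MB49 cells ran the other way, at 0.0331 to 2.70 in deleted and 1.91 to 12.8 in wild-type hosts. Conventional CD4 cells of the same libraries held Apoe at 40.0, 20.2 and 3.24 in deleted libraries 3, 4 and 8 and at 8.93, 0 and 0 in wild-type libraries 2, 5 and 6. Without the cells that held at least 3 other-lineage markers none of the 5 passed: Psap had a log2 difference of 1.31 and Ctsc of 0.75 (limma adjusted p = 0.89 and 0.928), and Apoe, Lyz2 and Ctsl were too rare to be tested. Apoe and Lyz2 are among the markers by which those cells were removed, so their rarity there was partly set in advance and is no result.

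In those remaining cells 2 other genes passed. Ccl5, a chemokine of activated T cells, had 3.33 UMIs per 10000 in deleted library 8 and 1.53 in the pooled cells of deleted libraries 3, 4 and 7, against 18.1 and 25.5 in wild-type libraries 2 and 6 (log2 difference -2.98, limma adjusted p = 0.000335). Conventional CD4 cells held Ccl5 at 0, 2.26, 4.49 and 4.84 in deleted libraries 3, 4, 7 and 8. In those of wild-type libraries 2 and 6 it was 22.5 and 44.7, but 3.65 in wild-type library 5, within the deleted range. The low level in deleted hosts was thus not particular to Foxp3+ cells. Gm10076, a gene model, had 78.0 in deleted library 8 and 43.6 in the deleted pool, against 0.268 and 28.1 in wild-type libraries 2 and 6, and a log2 difference of 3.65. In conventional CD4 cells it was 0 in libraries 2, 3 and 4 and 79.0 in deleted library 8, 92.4 in deleted library 7, and 89.5 and 29.5 in wild-type libraries 5 and 6, so it followed the barcode set in both genotypes, and set and genotype cannot be told apart for it here. Each genotype had 2 replicates in this comparison.

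Regulatory T cell genes did not pass between genotypes. Foxp3 itself, which the rule used and which was not tested, had 11, 5.33, 5.52 and 7.97 UMIs per 10000 in deleted libraries 3, 4, 7 and 8, and 8.75, 10.8, 10.6 and 5.96 in wild-type libraries 1, 2, 5 and 6. Ikzf2 had 10.2, 8.34, 9.52 and 10.1 in these deleted libraries and 7.28, 15.8, 21.0 and 8.83 in these wild-type libraries, and averaged 9.56 ± 1.06 in deleted and 15.2 ± 6.09 in wild-type hosts over those tested (SD over 3 libraries each; log2 difference -0.57 with SE 0.44, adjusted p = 0.863 with limma). Tnfrsf4 had 24.7, 8.09, 7.87 and 13.9 in the deleted libraries and 12.8, 25.6, 12.3 and 23.3 in the wild-type ones, and Ctla4 had 18.1, 5.08, 10.8 and 9.76 in the deleted and 13.7, 9.12, 11.3 and 9.83 in the wild-type ones. The log2 differences were -0.45 for Tnfrsf4, -0.05 for Ctla4, -0.19 for Gzmb and 0.32 for Klrg1 (SE 0.45 to 0.46, adjusted p between 0.913 and 0.993). Levels of these genes overlapped between the genotypes over the 8 libraries, and the standard errors near 0.45 set how large a difference could pass.

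None of the 19 lists had a member past the threshold. Median log2 differences, against 0.0873 over all genes, were -0.22 for regulatory T cell identity, -0.01 for effector and tumor regulatory T cells, -0.19 for suppressive mediators and -0.22 for costimulatory receptors. They were 0.66 for immediate early genes, 0.40 for T cell receptor activation, 0.34 for homing receptors, 0.28 for the interferon gamma response and 0.12 for autophagy. Furin averaged 2.45 ± 0.810 in deleted and 0.794 ± 0.875 UMIs per 10000 in wild-type Foxp3+ cells (SD over 3 libraries each; log2 difference 1.37, adjusted p = 0.532 with limma).

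The type I interferon list had a median of -0.32, with 3 of its 13 tested members at a positive difference. Bst2, the antiviral protein tetherin, had 1.61, 2.77, 1.89 and 1.17 UMIs per 10000 in deleted libraries 3, 4, 7 and 8, and 13.0, 6.98, 4.59 and 5.41 in wild-type libraries 1, 2, 5 and 6. The genotypes did not overlap, as for 3.26% of all tested genes in the lower direction over 6 libraries, and the difference did not pass (log2 difference -1.43, SE 0.45, limma adjusted p = 0.347). Ifi27l2a, an interferon-induced mitochondrial protein, had 10.3, 9.11, 31.1 and 26.0 in the deleted and 24.2, 54.2, 23.9 and 53.5 in the wild-type libraries, with overlap (log2 difference -1.57, adjusted p = 0.28). The other genes of lowest p in this direction were mt-Nd4l, Eno1 and Rpl9-ps6 (log2 differences -1.68, -1.66 and -1.97, adjusted p = 0.252, 0.347 and 0.402), whose levels in libraries 1 to 4 lay below those of libraries 5 to 8.

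**Figure D4:**
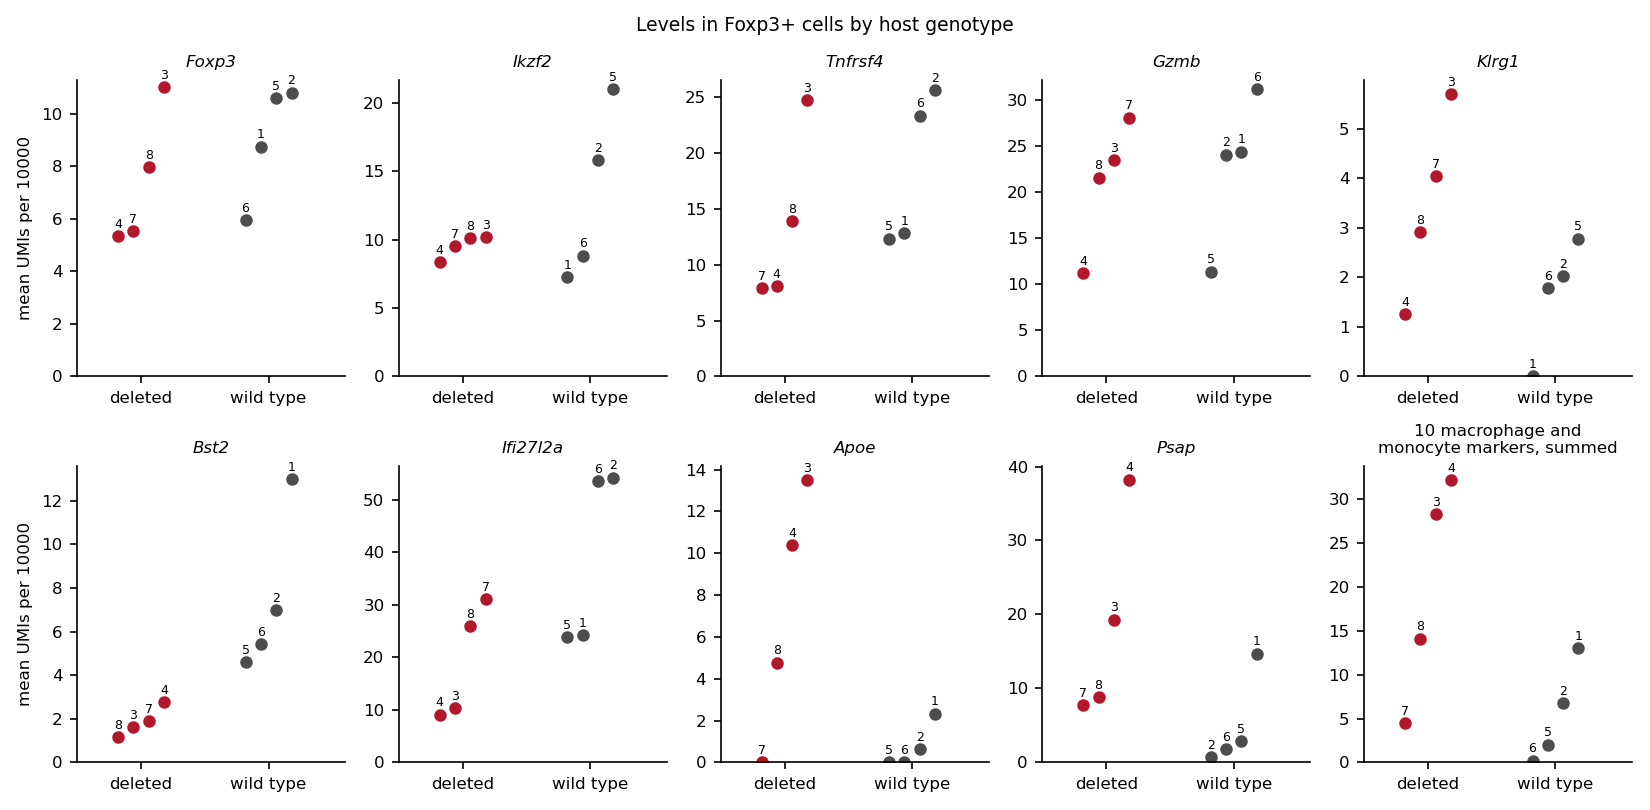
Mean UMIs per 10000 in Foxp3+ cells of each library, deleted hosts left and wild-type hosts right, for Foxp3, 8 further genes and the sum of 10 macrophage and monocyte markers. Numbers are libraries, and libraries 1 and 7 hold 3 and 7 Foxp3+ cells. Bst2 is the panel without overlap, with 1.17 to 2.77 in deleted and 4.59 to 13.0 in wild-type hosts, and Apoe, Psap and the summed markers are highest in deleted libraries 3 and 4. The 10 summed markers include Apoe and Lyz2.

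Whether the genotype difference itself differed between Foxp3+ and conventional CD4 cells was tested on the difference of the log2 levels within each library. Of 4976 genes none passed (0.0%) with limma, and 233 had an unadjusted p under 0.05. The difference for Apoe was 3.83 in Foxp3+ cells and differed from that in conventional CD4 cells by 0.37, and the adjusted p was 0.998 for it and for Ikzf2 (0.27), Ctla4 (0.08), Tnfrsf4 (-0.04) and Icos (-0.30). The 5 genes of lowest p in the higher direction were Ddhd2, Dnm2, Ctsc, Cxcl3 and Prdx1 and in the lower direction Tstd3, Zfp36l2, Zmym2, Wtap and Setd1a, each with adjusted p = 0.998.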

How the data were processed

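Single-cell RNA-seq was made from dissociated MB49 tumors of 4 libraries from deleted and 4 from wild-type hosts. Reads were processed by the authors with Cell Ranger 2.1 and Seurat 3.0 on mm10, per the submitters' processing notes. The deposited values are natural log values, ln(1 + 10000 × UMIs / UMIs of the cell), and whole UMIs were recovered from them within 0.01 UMI. Deposited cells had 201 to 5000 genes, at least 498 UMIs and under 20% mitochondrial UMIs. No doublet caller was run; cells with UMIs of at least 3 other-lineage markers were left out as an alternative.

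Levels are mean UMIs per 10000 over the cells of a library, tested as log2(level + 0.5) with limma 3.58.1 in R 4.3.3 (trend, adjusted by Benjamini-Hochberg over all genes tested). Genes with UMIs in at least 10% of the cells of at least 3 libraries entered the tests. Libraries 1 and 7, with under 10 Foxp3+ cells, were left out of these tests. Shares were compared by two-sided exact permutation (scipy 1.17.1) after thinning to 1000 UMIs, with exact binomial 95% intervals elsewhere. The tests were checked on simulated data. Coordinates are from GENCODE M21, which matched 98.7% of 19024 symbols.

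The cells, markers and gene lists were chosen with earlier results of these data known. Named are the markers, the 12 genes of lowest p in each direction past an adjusted p of 0.05 (the 5 of lowest p where fewer than 5 passed), and list members that passed or, where none did, the 3 most abundant. Further members named beside them, and genes of counts of 5 or fewer, were chosen after their values were seen. Alternatives were other pseudocounts, filters, scalings, thinning depths and leaving out each library. Some genes counted in the lists are not reported here by name.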

Additional observations from a re-analysis of the deposited data

Results flagged for a closer look

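In deleted hosts 3.12% of CD8 T cells had a Foxp3 UMI (13 of 416, 95% exact binomial interval 1.67 to 5.29%, median 5228 UMIs per cell), against 0.726% in wild-type hosts (7 of 964, 0.292 to 1.49%, median 3223 UMIs). These cells lay outside the rule because of their CD8 UMIs, and depth differed between the groups. The genotype difference was not tested over libraries.

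Among the differences between Foxp3+ and conventional CD4 cells, single libraries stood apart from the rest of their group by Dixon's test for Ifng in deleted library 4 (log2 difference -0.84) and for B4galnt1 in wild-type library 6 (-0.67), each nearer to 0 than in the other libraries. Over 34 groups checked, chance gives about 1 such value in 20.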

How the results depend on the processing

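The small difference in the share of Foxp3+ cells among T cells without CD8 turned its sign without thinning (-0.314 percentage points), at 2000 UMIs (-1.14) and with at least 2 T cell genes (-0.175), and ran between -0.329 and 0.283 when one library was left out (-0.226 without deleted library 8). At 2000 UMIs the differences in the shares of all cells (0.506), per 100 CD8 T cells (14.3) and per 100 conventional CD4 cells (-24.1) passed an adjusted p of 0.05; the cause was not tested. Leaving out one library gave 0.901 to 1.36 for the share of T cells, 0.216 to 0.321 for all cells, 16.2 to 20.05 per 100 CD8 T cells and -18.8 to -11.6 per 100 conventional CD4 cells.

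The 5 genes between genotypes became 3 with a pseudocount of 0.1, without a filter or with summed UMIs, 1 with a 20% filter, which leaves Apoe, Lyz2 and Ctsl untested, 4 with a barcode set term (Ctsc lost), 2 without cells of other-lineage markers, 22 with at least 2 Foxp3 UMIs, and 3 to 34 without one library (34 without wild-type library 2, 12 without wild-type library 5, 11 without deleted library 8). Of the alternatives chosen after seeing the data, all 8 libraries gave 1, thinning 1, and pooling libraries 1 and 7 with 2 and 8 gave 8. Without cells of other-lineage markers mt-Nd4l (0.12) and Rpl9-ps6 (1.37) turned their sign.

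The 221 genes between cell groups became 27 without a filter, which tests more genes, 116 without cells of other-lineage markers, 64 with no replicate block, and 118 (without deleted library 8) to 253 without one library. With wild-type libraries alone there were 84 and with thinning 86, both chosen after seeing the data. Areg turned its sign with all 8 libraries (-0.11). The difference of differences gave 2 genes without cells of other-lineage markers, where deleted hosts had library 8 alone, so these rest on its spread being like that of wild-type libraries 2 and 6. No paired analysis was possible between genotypes because deleted and wild-type libraries share no replicate number.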

Other observations

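T cell receptor beta V genes were read in few cells. Exactly 1 Trbv gene had a UMI in 21 of the 121 Foxp3+ cells (11 deleted, 10 wild-type), over 10 V genes, and in 114 conventional CD4 cells over 15 V genes. Trbv13-2 was that gene in 5 of the 21 Foxp3+ cells (23.8%), from 4 libraries, and in 4 of the 114 conventional cells (3.51%). Trbv19 was that gene in 1 Foxp3+ cell and in 25 conventional cells (21.9%), 20 of them from 1 library. Cells of a library may share a clone, so these counts are a description.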
